A study of Homo sapiens with 6 samples.

Results

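The control cultures of SKOV3, an established cell line from a human ovarian adenocarcinoma, are described here by their own transcriptome. They were chosen by their label alone: the 3 libraries of cells with a control hairpin (shNC 1, shNC 2 and shNC 3), of 6 libraries in the series. Their genotype is labelled wild type, but like the other 3 libraries, which carried a hairpin against JUP and are not used here, they carried a short hairpin RNA. The sources used here do not give the sequence of the control hairpin, its vector, the culture conditions, or whether the cells were a pool or a single clone. Per the labels, the replicates are independent biological replicates. RNA with poly(A) tails was enriched with oligo(dT) beads and sequenced on a DNBSEQ instrument. All values describe 1 group of 3 libraries, so no test between groups was made.

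SKOV3 is widely used as a model of ERBB2-amplified ovarian cancer. ERBB2 (HER2) is a receptor tyrosine kinase without a known ligand of its own, which signals by pairing with the other ERBB receptors. Keratins 8 and 18 form the filaments of simple epithelia, and desmoplakin ties such filaments to desmosomes, the cell contacts that resist pulling. Cells of this line are also known for mesenchymal traits, with little E-cadherin.

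The libraries held 18157973, 19279514 and 18570520 estimated counts for shNC 1, 2 and 3. Levels are given in CPM, the counts of a gene per 1000000 counts of its library, after TMM scaling among these 3 libraries. shNC 2 stood apart from the other libraries. The biological coefficient of variation, the spread between cultures beyond counting noise, was 10% for shNC 1 with shNC 3, against 28.1% for shNC 1 with shNC 2 and 24.8% for shNC 2 with shNC 3. Over all 3 it was 22.8%. Each level below is therefore given by library, in the order shNC 1, 2 and 3. The labels do not say whether culture 2 was handled differently. In RNA from bulk cultures, fewer cells of a type and less RNA per cell cannot be told apart.

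Of 60664 genes in the table, 13589 (22.4%) had at least 1 CPM in each of the 3 libraries and are called expressed below. Protein-coding genes made up 12107 of these, which is 60.9% of the 19890 protein-coding genes. This share is the background for each count of expressed genes in a list below. No count at all was found for 31845 genes (52.5%), of which 3083 were protein-coding (15.5% of that class). A summed count of 0 allows a level of up to 0.0536 CPM (3 counts over the 3 libraries), and this limit covers counting error only. Without shNC 2 the expressed genes numbered 13852 and the genes without a count 33697. At the other end, 73 genes had a mean of at least 1000 CPM, and all but 1 of them were protein-coding. The exception, MT-RNR2, is the large ribosomal RNA of mitochondria. Protein-coding genes took 96.8% to 96.9% of the counts of each library.

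Expressed and silent genes differed in the sequence around their starts. RefSeq windows on GRCh38.p14, 300 bases long with 250 before and 50 after the gene's start, were matched by symbol to 15277 protein-coding genes. CG dinucleotides, the sites of DNA methylation in vertebrates, are dense in the CpG islands that cover the starts of many broadly used genes. The median window of an expressed gene held 27 CG dinucleotides, and that of a gene with 0 counts held 4. All matched genes had a median of 22 and the 100 genes with the highest mean CPM a median of 29. Of genes with 0 to 4 CG in the window, 19.1% were expressed and 44.2% had 0 counts, whereas of genes with 30 or more, 85% were expressed and 3.01% had 0 counts. The windows are placed at the gene's start in RefSeq, which need not be the start used in these cells. In 10376 of the 15277 genes the window also held the 5′ end of the principal transcript in GENCODE 29, and in these the medians were again 27 and 4. DNA methylation was not measured here.

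**Figure D1:**
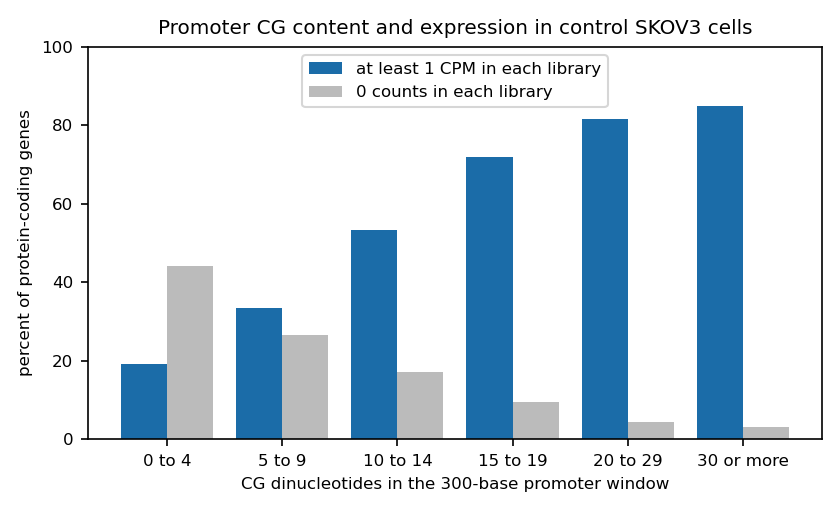
Percent of protein-coding genes that were expressed (at least 1 CPM in each control library) or had 0 counts in each library, by the number of CG dinucleotides in the 300-base window at the gene's start. The expressed share goes from 19.1% in the class with 0 to 4 CG to 85% in the class with 30 or more, and the share with 0 counts from 44.2% to 3.01%.

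Windows from genes at both ends are printed 5′ to 3′ on the strand of the gene, with CG dinucleotides in capitals, because they show this difference letter by letter. DSP (chr6:7541421-7541720, + strand) and EEF1A1 (chr6:73520983-73521282, − strand) were expressed and hold 37 and 24 CG. KRT20 (chr17:40885193-40885492, − strand), a keratin of the gut lining, had 0 counts and holds 2. S100A4 (chr1:153545757-153546056, − strand), a calcium-binding protein of motile cells, shows that the relation has exceptions. It stood at 634, 589 and 658 CPM with 8 CG in its window, and it holds the letters tataaa, the core of a TATA box, 31 bases before the start given by RefSeq. All 4 windows hold the 5′ end of the principal transcript, but that of S100A4 lies 79 bases before the RefSeq start, so these letters come after it.
DSP: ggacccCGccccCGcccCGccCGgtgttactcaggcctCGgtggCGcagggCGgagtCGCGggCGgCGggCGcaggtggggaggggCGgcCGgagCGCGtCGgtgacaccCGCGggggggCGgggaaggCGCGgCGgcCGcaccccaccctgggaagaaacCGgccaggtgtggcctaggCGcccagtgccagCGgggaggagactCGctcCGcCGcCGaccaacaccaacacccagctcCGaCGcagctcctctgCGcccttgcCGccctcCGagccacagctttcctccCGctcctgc
EEF1A1: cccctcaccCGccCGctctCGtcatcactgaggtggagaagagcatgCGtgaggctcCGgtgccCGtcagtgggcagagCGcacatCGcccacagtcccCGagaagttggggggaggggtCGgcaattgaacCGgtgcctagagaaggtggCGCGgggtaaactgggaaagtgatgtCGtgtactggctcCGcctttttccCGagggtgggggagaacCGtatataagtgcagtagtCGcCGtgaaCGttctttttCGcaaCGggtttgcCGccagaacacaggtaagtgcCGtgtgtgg
S100A4: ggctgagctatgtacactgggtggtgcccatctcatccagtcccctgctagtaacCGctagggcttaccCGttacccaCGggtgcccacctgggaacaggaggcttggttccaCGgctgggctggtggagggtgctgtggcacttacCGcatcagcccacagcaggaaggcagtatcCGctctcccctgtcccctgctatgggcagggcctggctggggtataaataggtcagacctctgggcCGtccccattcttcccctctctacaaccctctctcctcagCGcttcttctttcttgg
KRT20: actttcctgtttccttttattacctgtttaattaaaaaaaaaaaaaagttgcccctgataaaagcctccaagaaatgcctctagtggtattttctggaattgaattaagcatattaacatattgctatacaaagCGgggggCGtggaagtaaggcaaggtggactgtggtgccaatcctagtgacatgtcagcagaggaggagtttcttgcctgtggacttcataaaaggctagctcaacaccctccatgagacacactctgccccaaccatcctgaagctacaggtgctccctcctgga

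The windows were also searched for 3 motifs on both strands, none of which contains another, although their occurrences can share letters. TATAAA was found in 5.22% of the windows of expressed genes, 23.6% of those with 0 counts, 17% of the 100 genes with the highest mean CPM and 9.60% of all windows. GGGCGG, the GC box, was found in 71.1%, 25.4%, 78% and 59.3% of the same classes. CCAAT was found in 37.0% of expressed genes, 37.1% of genes with 0 counts, 44% of the 100 highest and 36.6% of all. Between expressed and silent genes TATAAA and GGGCGG went in opposite directions and CCAAT was about as frequent, whereas the 100 highest genes held each of the 3 motifs more often than all windows did. A match is a description of the letters, not of a bound site, and GC-rich windows hold more GGGCGG by composition.

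The largest shares of counts belonged to mitochondrial transcripts, translation, iron storage, glycolysis, the cytoskeleton and ERBB2. In each library the 10 genes with the most counts, not always the same genes, took 6.99% ± 0.704 of the counts (SD, n = 3). The shares were 6.57%, 7.80% and 6.59% in shNC 1, 2 and 3. MT-CO1, a subunit of cytochrome c oxidase encoded in mitochondrial DNA, stood at 10541, 13582 and 10099.9 CPM. EEF1A1, the factor that brings aminoacyl-tRNA to the ribosome, stood at 11288, 11512 and 9384 CPM. These genes ranked first and second by mean CPM, and their ranges over libraries overlapped. FTH1, the heavy chain of ferritin, which stores iron, stood at 6737, 8058 and 7488 CPM, and reads from its many processed pseudogenes may be counted with it. LDHA, which turns pyruvate into lactate, stood at 5917, 5466 and 7088 CPM. ERBB2 had the 7th highest mean at 4331, 6848 and 4160.4 CPM.

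The 25 genes with the highest mean CPM also held a matrix protein, an adhesion receptor and a chaperone. The cytoskeleton was represented by ACTG1 (gamma-actin), at 4217, 4793 and 4466 CPM, and VIM (vimentin), at 3377, 3079 and 3707 CPM. Of the glycolytic enzymes, PKM stood at 3319, 3278 and 3831 CPM and ENO1 at 3379, 2974 and 3775 CPM. These levels spread little over the libraries compared with FN1, the matrix protein fibronectin, which stood at 849, 5786 and 1621 CPM. ITGB1, the beta chain of most fibronectin, collagen and laminin receptors, was at 2522, 2330.3 and 2834 CPM, and the chaperone HSP90AA1 had a mean of 2150.4 CPM. The 13 proteins encoded in mitochondrial DNA together took 3.85% to 4.49% of the counts, and 77 ribosomal protein genes, all expressed, took 3.64% to 4.19%.

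**Figure D2:**
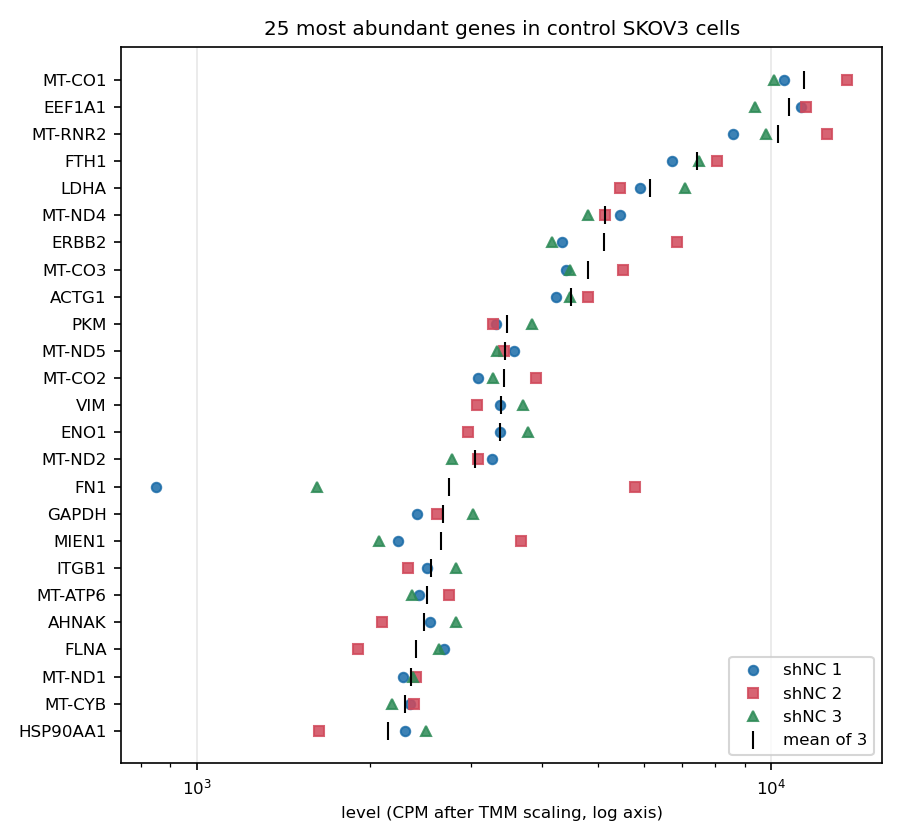
Level in each control library of the 25 genes with the highest mean CPM (points, log axis), with the mean of the 3 libraries as a vertical bar. Most genes lie close together in all libraries, whereas FN1 spans 849 to 5786 CPM, and ERBB2 and MIEN1 are highest in shNC 2.

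Long transcripts collect more reads, so levels of different genes were compared per kilobase of the principal transcript. On this scale of CPM per kilobase, calculated on the mean of the 3 libraries, the order was led by MT-CO1 (7398), MT-RNR2 (6606), MT-CO3 (6113) and FTH1 (6044). TMSB10, a small protein that binds actin monomers, was at 3592 CPM per kilobase, MIEN1 at 2644 and LDHA at 2549. Of the 15 genes highest per kilobase, 11 are encoded in mitochondrial DNA. With the union of all exons as the length, 13 of the 15 were the same genes. The principal transcript need not be the one made in these cells, so values and orders per kilobase are approximate. ERBB2 came 30th per kilobase at 1125, above 99.8% of the 13490 expressed genes with a transcript length.

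The markers given for the line were all found. ERBB2 (ENSG00000141736) had a mean of 5113 ± 1505 CPM (SD, n = 3), with shNC 2 above both other libraries. KRT8 (ENSG00000170421) stood at 555, 490.2 and 537 CPM and KRT18 (ENSG00000111057), its partner in the filament, at 208, 207 and 217 CPM. Per kilobase, KRT8 was at 1.96, 1.74 and 1.82 times KRT18 in the 3 libraries. DSP (ENSG00000096696), desmoplakin, stood at 473, 426 and 450.1 CPM. KRT8, KRT18 and DSP thus varied by at most 1.13-fold between the highest and lowest library, and ERBB2 by 1.65-fold.

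Of 7 genes in a list of keratins of simple epithelia, in which KRT80 was included, 5 were expressed. Keratins of layered epithelia were expressed in 5 of 11 but at low levels. KRT7, common in glandular epithelia of the female tract, stood at 228, 142 and 109 CPM, KRT19 at 172, 218 and 140.5 CPM and KRT80 at 307, 170.3 and 211 CPM. KRT20 and KRT23 had 0 counts. Of the keratins of layered epithelia, KRT10, KRT14, KRT17, KRT5 and KRT15 were expressed, with KRT10 at 22.3, 27.3 and 25.3 CPM and KRT14 at 17, 15.8 and 8.41 CPM. KRT17 was at 24.8 CPM in shNC 1 and at 5.58 and 5.20 CPM in the others, so here shNC 1 was the library that differed. KRT1, KRT4, KRT6B and KRT13 had 0 counts.

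Other epithelial genes were expressed in 8 of 20 and mesenchymal genes in 13 of 16, against 60.9% of all protein-coding genes. MAL2, a transport protein of polarised cells, stood at 138, 143 and 139.9 CPM, and SPINT2, an inhibitor of membrane proteases, at 111, 150.3 and 111 CPM. The ETS factors EHF and ELF3, which act in epithelia, were at 37.1, 124 and 31.4 CPM and at 26.7, 100.4 and 35.3 CPM, both highest in shNC 2. EPCAM, the epithelial adhesion molecule, was at 1.69, 4.58 and 1.23 CPM. CDH1 (E-cadherin) was at 0.109 and 2.09 CPM in shNC 1 and 2 and had 0 counts in shNC 3. GRHL2 and OVOL1, factors that maintain the epithelial state, had 0 counts throughout. On the mesenchymal side, CDH2 (N-cadherin) stood at 166, 154 and 198 CPM. The repressors of CDH1 were present, with ZEB1 at 81.4, 94.7 and 90.1 CPM and SNAI2 at 141, 50 and 168 CPM, lowest in shNC 2. SPARC, a secreted collagen-binding protein, stood at 25.2, 292 and 46.6 CPM.

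Of 35 markers used for ovarian carcinoma and the Mullerian tract, 17 were expressed, against 60.9% of all protein-coding genes. These were 9 of the 12 transcription factors and 8 of the 23 surface or secreted proteins. Among the factors, PAX8, which marks Mullerian epithelium and most serous carcinomas, stood at 355, 251 and 349.9 CPM, and MECOM, a zinc finger factor often amplified in ovarian cancer, at 394, 570.3 and 359 CPM. Per kilobase, PAX8 lay above 94.1% and MECOM above 96.3% of expressed genes. SOX17, a partner of PAX8 in this tract, was at 28.2, 35.1 and 28.2 CPM. GATA6 stood at 29.5, 28.3 and 28.8 CPM. WT1, a marker of serous carcinoma, was just above the limit for expression at 1.85, 1.63 and 1.72 CPM. ESR1, the oestrogen receptor alpha, was uneven at 12.9, 54.9 and 10.6 CPM.

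The surface and secreted markers split into a few well expressed genes and many near 0. CD24, a small glycoprotein of the cell surface, stood at 199.97, 202 and 250.1 CPM. FOLR1, the folate receptor alpha, was at 5.83, 6.69 and 2.47 CPM. MUC16, which carries the CA-125 epitope, had 0, 12 and 2 counts, or 0, 0.632 and 0.107 CPM. MSLN (mesothelin) was at 0.381, 0.527 and 0.107 CPM, and WFDC2, which encodes the serum marker HE4, at 0, 0.211 and 0.0536 CPM. KLK5, KLK6, KLK7, KLK8 and TFF3 had 0 counts. CP (ceruloplasmin, a copper oxidase), SPP1 (osteopontin) and LCN2 (lipocalin 2, an iron carrier) were far higher in shNC 2 than in the other libraries. Their levels were 7.75, 511 and 16.7 CPM for CP, 9.65, 113 and 14.4 CPM for SPP1, and 0.436, 19.3 and 1.29 CPM for LCN2. Without shNC 2 the median of the 35 markers was 0.868 CPM, against 1.71 CPM with it.

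ERBB2 lies on the long arm of chromosome 17 among genes that are often amplified with it, and several of these were among the high genes here. MIEN1, its next gene, which promotes migration, stood at 2238, 3665 and 2078 CPM. STARD3, a cholesterol carrier of late endosomes, stood at 351, 505 and 318 CPM, PGAP3, a remodeller of lipid anchors, at 111, 124 and 89.9 CPM, and PPP1R1B, an inhibitor of protein phosphatase 1, at 110.1, 139 and 118 CPM. GRB7, an adapter that binds ERBB2, was at 37.1, 108 and 29.7 CPM. In all 6 genes of the 9 in this list with a mean of at least 5 CPM, shNC 2 was highest, with a 3.63-fold range for GRB7 and 1.27-fold to 1.76-fold ranges for the others. TCAP, PNMT and IKZF3, which are known from muscle, adrenal gland and lymphocytes, had means of 3.05, 0.569 and 2.60 CPM. Among all genes with a mean of at least 5 CPM, shNC 2 was highest by any margin in 4773 of 11360 (42%) and lowest in 5013 (44.1%). Among the other genes within 12 positions of ERBB2, 10 had a mean of at least 5 CPM, and shNC 2 was highest in 7 of them, such as ORMDL3, a regulator of sphingolipid synthesis, at 66.5, 96.8 and 77.3 CPM. It was lowest in 2, the Mediator subunit MED1, at 337, 265 and 315 CPM, and the kinase CDK12, at 171, 169 and 187 CPM.

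On the short arm of chromosome 9 the cell cycle inhibitors CDKN2A and CDKN2B had 0 counts in all libraries. Their neighbour MTAP, which salvages methionine, stood at 106, 92.6 and 90.7 CPM, and KLHL9, on the same side, at 66.0, 55.4 and 61.2 CPM. Between MTAP and KLHL9 lie interferon genes, of which IFNA2, IFNA6 and IFNA8 had 0 counts and IFNE was at 5.45, 2.00 and 2.36 CPM. On the other side, DMRTA1 was at 0.163, 0.843 and 0.536 CPM, ELAVL2 at 0, 0.211 and 0 CPM, and IZUMO3 had 0 counts. The first expressed gene on that side was TUSC1, at 6.81, 6.74 and 6.65 CPM. Whether the DNA is present was not measured.

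Of 29 tumour suppressors and oncogenes, 26 were expressed. None of the 25 with a mean of at least 5 CPM varied 2-fold, against 7.27% of all such genes. At that share a list of 25 would hold few variable genes. RB1, the brake on entry into S phase, was at 176, 169.7 and 189.6 CPM. CCND1 (cyclin D1) stood at 559, 502 and 560.3 CPM, whereas CCND2 (cyclin D2) had 0 counts. MYC was at 95.5, 94.2 and 93.0 CPM, a narrow range.

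Of 58 receptor tyrosine kinases, 35 were expressed, close to the share of 60.9% among all protein-coding genes. ERBB2 led them by a wide margin. Per kilobase of transcript on the mean of the 3 libraries it stood at 1125, followed by EPHA2 (59.8), MET (56.6), RYK (54.8), EGFR (41.8), PTK7 (41.3) and AXL (35.8). The ratio of ERBB2 to EGFR per kilobase was 18.1, 50.4 and 21.4 in shNC 1, 2 and 3, and 26.9 on the means. It was 15.1 on the means when the union of all exons served as the length, since EGFR and ERBB2 then have other lengths. EGFR stood at 517, 294 and 421 CPM, lowest in shNC 2, where ERBB2 was highest. MET, the receptor of hepatocyte growth factor, was at 346, 395 and 386 CPM, EPHA2 at 257, 197 and 257 CPM and AXL, the receptor of GAS6, at 201, 115 and 193 CPM. The ERBB family was uneven: ERBB3, a usual partner of ERBB2, was at 0.436, 2.05 and 0.965 CPM, and ERBB4 at 6.43, 4.48 and 4.5 CPM. ALK, FLT1 and MUSK had 0 counts. Of the 24 receptor tyrosine kinases with a mean of at least 5 CPM, none varied 2-fold between libraries, against 7.27% of all such genes. At that share a list of 24 would hold few variable genes.

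**Figure D3:**
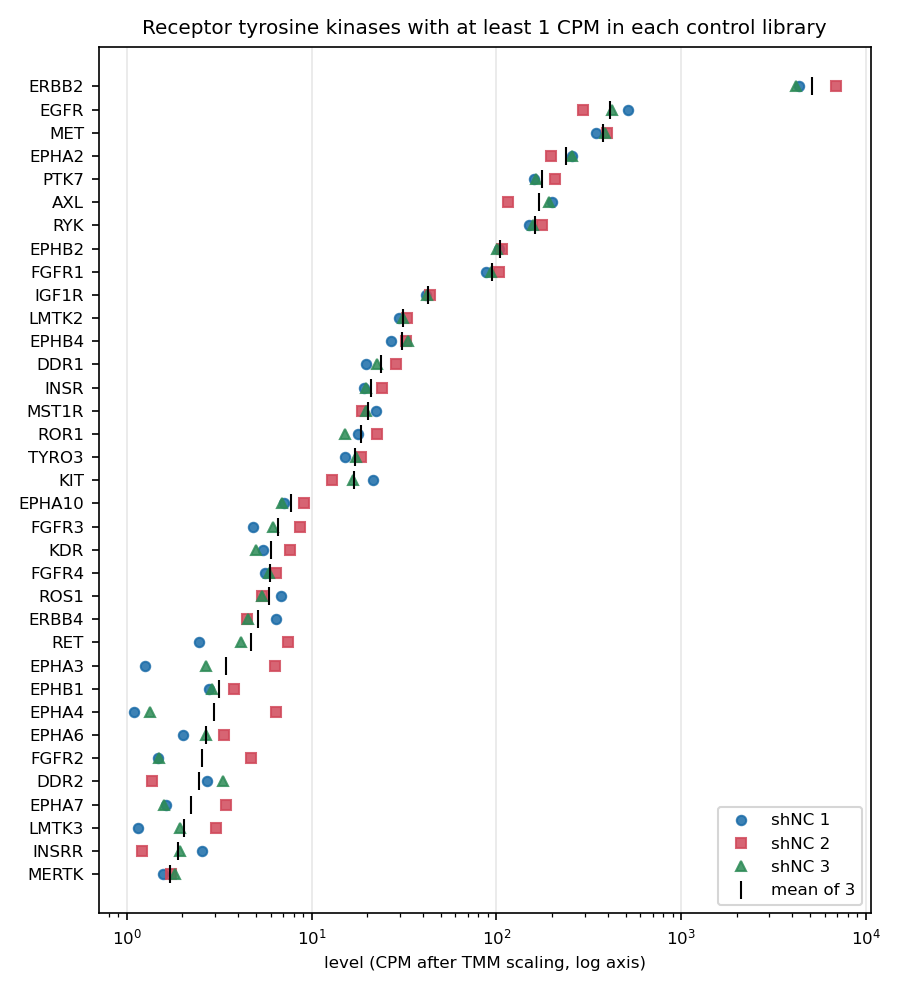
Level in each control library of the 35 receptor tyrosine kinases with at least 1 CPM in each (points, log axis), with the mean as a vertical bar. ERBB2 spans 4160.4 to 6848 CPM and EGFR, the next gene on this scale, 294 to 517 CPM, and the lowest genes are near 1 CPM.

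Receptors for cytokines and other growth factors were expressed in 44 of 58 genes, 22 of 31 cytokine receptors, 12 of 14 of the TGF-beta family and 10 of 13 of the TNF family. IL6ST (gp130), the signalling chain shared by the IL-6 family, stood at 618, 645 and 595 CPM, and OSMR, which pairs with it to bind oncostatin M, at 167, 238 and 209 CPM. TNFRSF10B, a death receptor for TRAIL, was at 234, 263 and 255 CPM and TGFBR2 at 169, 287 and 231 CPM. AMHR2, the receptor of anti-Mullerian hormone, and CRLF2 had 0 counts. The levels of IL6ST and TNFRSF10B spread by no more than 1.12-fold.

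Of 48 nuclear receptors, 30 were expressed, close to the share of 60.9% among all protein-coding genes. Per kilobase the order, which depends on the transcript lengths used, was led by NR1H2 (29.4), NR2C2 (25.1), RXRA (24.0) and NR3C1 (20.5). NR3C1, the glucocorticoid receptor, stood at 169.8, 114 and 164 CPM and RXRA, the common partner of many others, at 41.7, 45.0 and 46.1 CPM. NR0B1 and NR0B2 had 0 counts. Of the 26 with a mean of at least 5 CPM, 5 varied 2-fold, and shNC 2 was highest in each, against 5.04% of all such genes. NR4A1, an immediate early receptor without a known ligand, had a range of 8.10-fold, at 1.58, 12.8 and 1.88 CPM, and ESR1 one of 5.20-fold. The mean includes shNC 2. NR4A1, under 5 CPM in both other libraries, passed through shNC 2 alone and could only be highest there.

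Desmosomes were represented by 9 of 15 genes, close to the expressed share of 60.9% among all protein-coding genes. DSG2, the desmosomal cadherin of simple epithelia, stood at 529.8, 476 and 565 CPM, and DSC2, its partner, at 38.9, 46.5 and 37.3 CPM. Per kilobase DSG2 was at 28.8, 21.7 and 32.0 times DSC2, a ratio that depends on the transcript lengths used. JUP (plakoglobin), which links these cadherins to desmoplakin, stood at 103, 132 and 99.96 CPM. PKP3 was at 34.0, 27.9 and 34.9 CPM and PERP at 117, 109 and 139.9 CPM. DSG1, DSG3 and DSG4, the desmogleins of layered epithelia, were at or under 0.110 CPM in every library. Of the 9, PPL (periplakin) varied 2-fold, at 10, 22.3 and 8.63 CPM. The share among all genes with a mean of at least 5 CPM was 7.27%, so this list did not vary less.

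Adherens junction genes were expressed in 19 of 27, 7 of 12 cadherins and 12 of 15 catenins or linkers. Per kilobase the order was CTNNA1 (237), VCL (90.0), CTNNB1 (57), CDH6 (54.4) and CTNND1 (49.9). CTNNA1 (alpha-catenin), which ties the complex to actin, stood at 811, 975 and 884 CPM and CTNNB1 (beta-catenin) at 245, 288 and 276 CPM. Of the classical cadherins, CDH6 (K-cadherin), at 419, 601 and 363 CPM, and CDH2 were the main ones, and CDH6 was at 1.29, 2.00 and 0.936 times CDH2 per kilobase. The order of CDH6 and CDH2 was therefore not the same in all libraries.

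Tight junction genes were expressed in 18 of 33, 8 of 9 scaffolds and 10 of 24 membrane proteins. Gap junction genes were expressed in 4 of 13, and the share among all protein-coding genes was 60.9%. CLDN1 stood at 455, 207 and 449.5 CPM, lower in shNC 2, and TJP1 (ZO-1) at 232, 189.9 and 212 CPM. CLDN3 and CLDN4, claudins common in ovarian carcinoma, were at 0, 0.474 and 0.161 CPM and at 0.381, 1.00 and 0.643 CPM. CLDN8 and CLDN19 had 0 counts. GJA1 (connexin 43) stood at 295, 191 and 249.8 CPM and GJC1 (connexin 45) at 181, 182 and 196 CPM, whereas GJA4 and GJD2 had 0 counts.

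**Figure D4:**
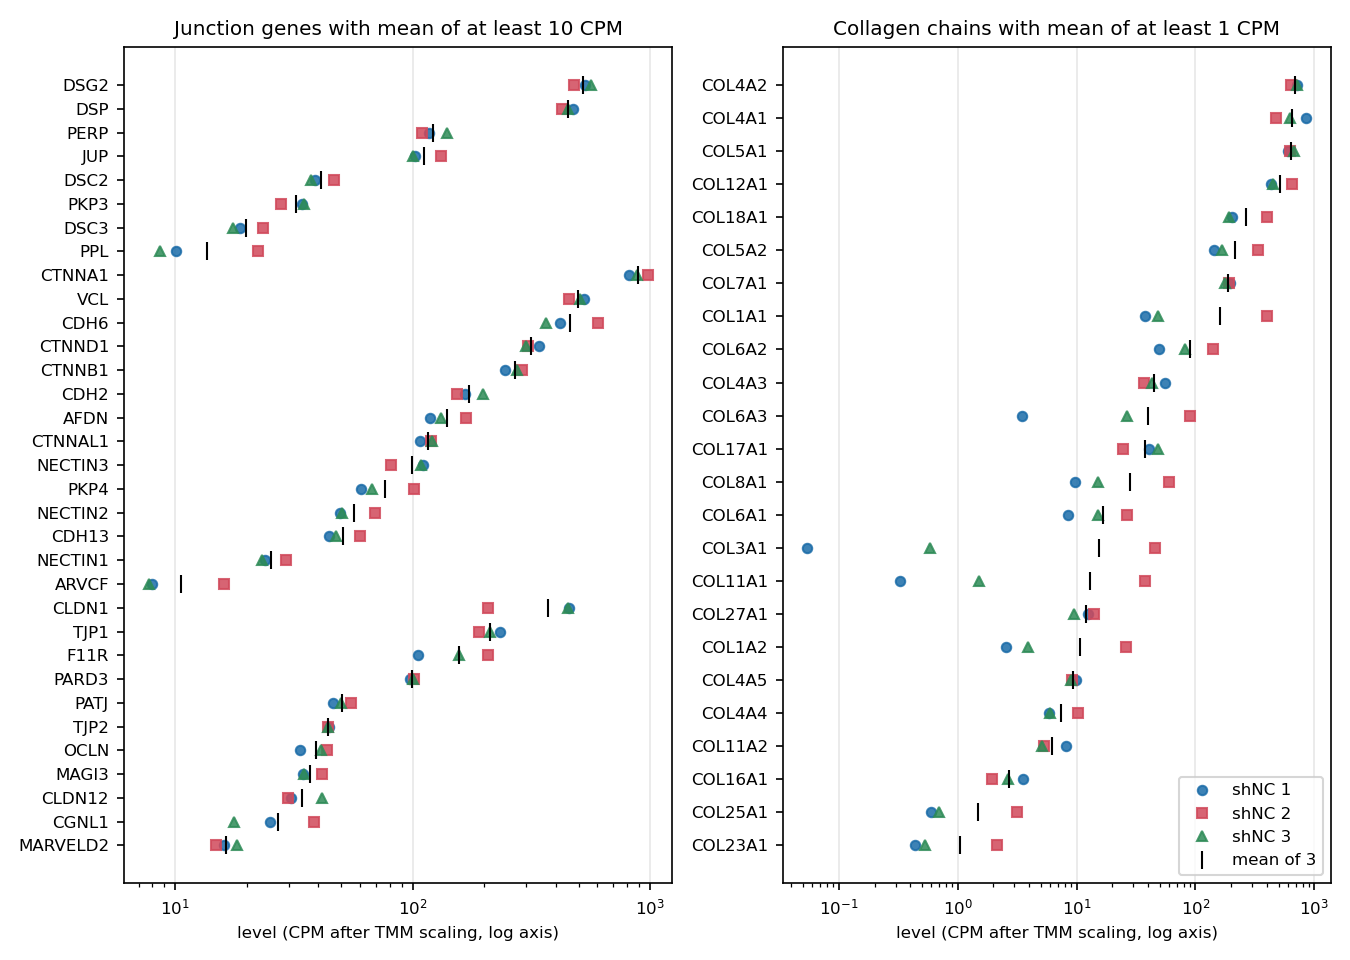
Level in each control library (points, log axis; vertical bar, mean of 3) of desmosome, adherens and tight junction genes with a mean of at least 10 CPM (left) and of collagen chains with a mean of at least 1 CPM (right). Junction genes lie within about 2.6-fold between libraries, whereas several collagen chains are far higher in shNC 2, with COL3A1 at 0.0545, 45.6 and 0.590 CPM.

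Collagen chains were expressed in 20 of 44 genes, against 60.9% of all protein-coding genes. The network chains of basement membrane led per kilobase, with COL4A2 at 106 and COL4A1 at 98.7, followed by the fibrillar chain COL5A1 (74.4). COL4A1 stood at 856, 475 and 629 CPM and COL4A2 at 719, 630.1 and 716 CPM. COL5A1, which starts collagen fibrils, was even at 600.1, 619 and 672 CPM. COL1A1, the main chain of type I collagen, stood at 37.8, 397 and 48.6 CPM and COL1A2 at 2.56, 25.9 and 3.91 CPM, so that COL1A1 was at 11.9, 12.4 and 9.98 times COL1A2 per kilobase. COL3A1 had 1, 866 and 11 counts. COL6A5, COL21A1 and COL22A1 had 0 counts. Of 21 chains with a mean of at least 5 CPM, 10 varied 2-fold and shNC 2 was the highest library in each of these 10. Among all 11360 genes with such a mean, 573 (5.04%) varied 2-fold with shNC 2 highest. The mean includes shNC 2. Chains under 5 CPM in both other libraries, such as COL3A1 and COL1A2, passed through shNC 2 alone and could only be highest there. Without shNC 2 the median level of the 44 chains was 0.571 CPM, against 2.10 CPM with it.

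Of 62 other matrix glycoproteins and proteoglycans, 47 were expressed, and the direction in shNC 2 was mixed. Of the 43 with a mean of at least 5 CPM, 17 varied 2-fold, 11 with shNC 2 highest and 6 with shNC 2 lowest. Among all such genes the counts were 573 (5.04%) with shNC 2 highest and 229 (2.02%) with it lowest. As for the collagens, a gene under 5 CPM in both other libraries passes through shNC 2 alone. THBS1 (thrombospondin 1), which activates latent TGF-beta, stood at 2438, 280.0 and 1891 CPM, the reverse of FN1. LAMC1, the gamma chain of most laminins, was even at 1461, 1489 and 1305 CPM. LAMA3, a chain of laminin 332, was at 621, 249.98 and 536 CPM, lowest in shNC 2, whereas LAMB3, another chain, was at 307, 294 and 313 CPM. VCAN (versican), a large proteoglycan, stood at 1143, 1652 and 1155 CPM. ELN (elastin) and FMOD had 0 counts.

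Matrix proteases and their inhibitors were expressed in 25 of 37, 19 of 29 proteases and 6 of 8 inhibitors. MMP1, which cuts fibrillar collagen, led per kilobase at 583 and stood at 662, 1661 and 1123 CPM. MMP13, another collagenase, was at 35.7, 389.7 and 74.8 CPM and MMP7 (matrilysin) at 3.92, 106 and 5.20 CPM. MMP10 (stromelysin 2) was at 62.2, 11.1 and 68.9 CPM. The collagenases and matrilysin were thus highest in shNC 2, and MMP10 lowest. TIMP2, at 568, 631 and 564 CPM, and MMP2, at 242, 282 and 267 CPM, differed little. TIMP4 had 0 counts.

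Integrin chains were expressed in 18 of 26, against 60.9% of all protein-coding genes. ITGB1 (677) and ITGA3 (338) led per kilobase. ITGA3, which pairs with ITGB1 to bind laminin, stood at 1524, 1669 and 1761 CPM. ITGA6 was at 476, 501 and 454 CPM, ITGAV at 428, 286 and 397 CPM and ITGA5, the fibronectin receptor chain, at 295, 221 and 295 CPM. Of 14 with a mean of at least 5 CPM only ITGA4 varied 2-fold, at 10.4, 26.9 and 10.2 CPM, against 7.27% of all such genes. ITGA8 and ITGAD had 0 counts.

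HOX genes, which set position along the body axis, were expressed from 1 cluster above all. In the HOXB cluster 9 of 10 genes were expressed, against 5 of 11 in HOXA, 1 of 9 in HOXC and 3 of 9 in HOXD. The summed level of HOXB genes was 414, 626 and 419 CPM, and that of HOXC genes 2.29, 2.58 and 2.57 CPM. HOXB7 stood at 56.6, 80.6 and 63.5 CPM and HOXB6 at 71.5, 102 and 63.8 CPM. HOXA4, HOXB1, HOXC11, HOXC12 and HOXC13 had 0 counts. All 9 expressed HOXB genes were highest in shNC 2, though only HOXB8 by 2-fold. Of all 13 HOX genes with a mean of at least 5 CPM, shNC 2 was highest in 12, including 2 of 2 in HOXD. Among all genes with such a mean, shNC 2 was highest in 42%.

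Genes of antigen presentation were expressed for MHC class I in 10 of 11 and for class II in 2 of 9. B2M, the light chain of class I, stood at 638, 1239.9 and 784 CPM and HLA-B at 84.6, 296 and 137 CPM. All 10 expressed class I genes were highest in shNC 2, as were 42% of all genes at such levels, and 6 of them varied 2-fold (5.04% of all such genes). HLA genes are close copies of each other and differ between people from the reference, so their split is uncertain. HLA-DRA, HLA-DRB1, HLA-DQA1, HLA-DQB1 and HLA-DPB1 had 0 counts, as had CD80, CD86 and VTCN1 among 12 ligands of immune cells, of which 9 were expressed. CD47, a signal against phagocytosis, stood at 189.7, 297 and 221 CPM and CD276 (B7-H3) at 69.2, 73.4 and 73.6 CPM.

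Of 28 interferon response genes 25 were expressed, with IFITM3, a block to virus entry, at 158, 460.0 and 197 CPM and IFITM1 at 6.27, 45.3 and 11.1 CPM. Of the 22 with a mean of at least 5 CPM, 8 varied 2-fold, 6 of them with shNC 2 highest. Of all genes with such a mean, 7.27% varied 2-fold, and 5.04% did so with shNC 2 highest. A gene under 5 CPM in both other libraries passes this limit through shNC 2 alone. Of 56 secreted cytokines and chemokines 37 were expressed. CXCL8 (interleukin 8), which draws neutrophils, stood at 842, 1204 and 942 CPM and CXCL1 at 543, 647 and 701 CPM. FGF2 was at 694, 306 and 639.6 CPM, lowest in shNC 2, VEGFA at 247, 317 and 324 CPM and IL1A at 276, 303 and 293 CPM. CCL7 and CXCL9 had 0 counts.

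Cancer-testis antigens, which are normally limited to germ cells, were expressed in 6 of 27 genes found, and 11 had 0 counts. PRAME stood at 68.5, 86.7 and 63.1 CPM and SPANXB1 at 95.7, 67.2 and 96.4 CPM. SPANXB1, SPANXC, SPANXD and SPANXA1 are near-identical copies, so reads may be split between them. MAGEB2 was at 8.72, 2.05 and 9.49 CPM.

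Most markers of other cell types were not expressed, and the stromal list moved with shNC 2. Of 12 leukocyte markers only CD68, a lysosomal protein also found outside the blood, was expressed, at 19.2, 31 and 27.5 CPM. PTPRC (CD45), the defining marker, was at 0, 0.0527 and 0 CPM, and CD3D, CD3E and MS4A1 had 0 counts. The 10 endothelial markers summed to 27.4, 54.5 and 23.5 CPM with 3 expressed, and VWF and PECAM1 reached at most 0.218 and 1.00 CPM. The 10 fibroblast and stromal markers summed to 44.2, 539 and 63.0 CPM. In shNC 2 this sum was made up by COL1A1, COL3A1, POSTN, COL1A2, LUM and DCN, whereas PDGFRB was at 0.163, 0.316 and 0.161 CPM, FAP at 0.327, 0.579 and 0.375 CPM and THY1 at 0.165, 0.242 and 0.225 CPM. Collagens belong to this list and to the collagen list, so the counts are not independent. The part of other cells in the values of shNC 2 was not tested.

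In the remaining lists few genes were expressed. The 8 mesothelial markers summed to 33.9, 31.2 and 42.1 CPM with 3 expressed, and CALB2 (calretinin) was at 0.327, 0.158 and 1.18 CPM. Of 12 granulosa and other ovary cell markers 3 were expressed, with INHBA, a subunit of activin, at 74.5, 93.9 and 104 CPM. FOXL2, FSHR and LHCGR had 0 counts. Of 9 hepatocyte markers 2 were expressed, of 12 neural markers 4, of 6 melanocyte markers 1 and of 9 muscle markers 0. ALB was at 0, 0.0527 and 0 CPM, RBFOX3 at 0.0545, 0.0527 and 0.0236 CPM, MYOD1 at 0.0545, 0 and 0 CPM, and TYR had 0 counts.

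The genes that varied most between libraries were those in which shNC 2 was far from the others. Of 11360 genes with a mean of at least 5 CPM, 826 (7.27%) had a highest library at least 2-fold above the lowest. shNC 2 was the highest or the lowest library in 802 of the 826, which leaves 24. It was highest in 573 and lowest in 229. In pairs of libraries, 72 genes (0.634%) lay 2-fold apart between shNC 1 and shNC 3, against 715 (6.29%) between shNC 1 and 2 and 519 (4.57%) between shNC 2 and 3. Of the 34 genes with a range of at least 10-fold, shNC 2 was highest in 30 and lowest in 4. Without shNC 2, 57 genes varied 2-fold. The 72 genes above were counted among the 11360 genes, whose mean includes shNC 2. A gene high in shNC 2 alone can therefore pass the limit of 5 CPM.

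**Figure D5:**
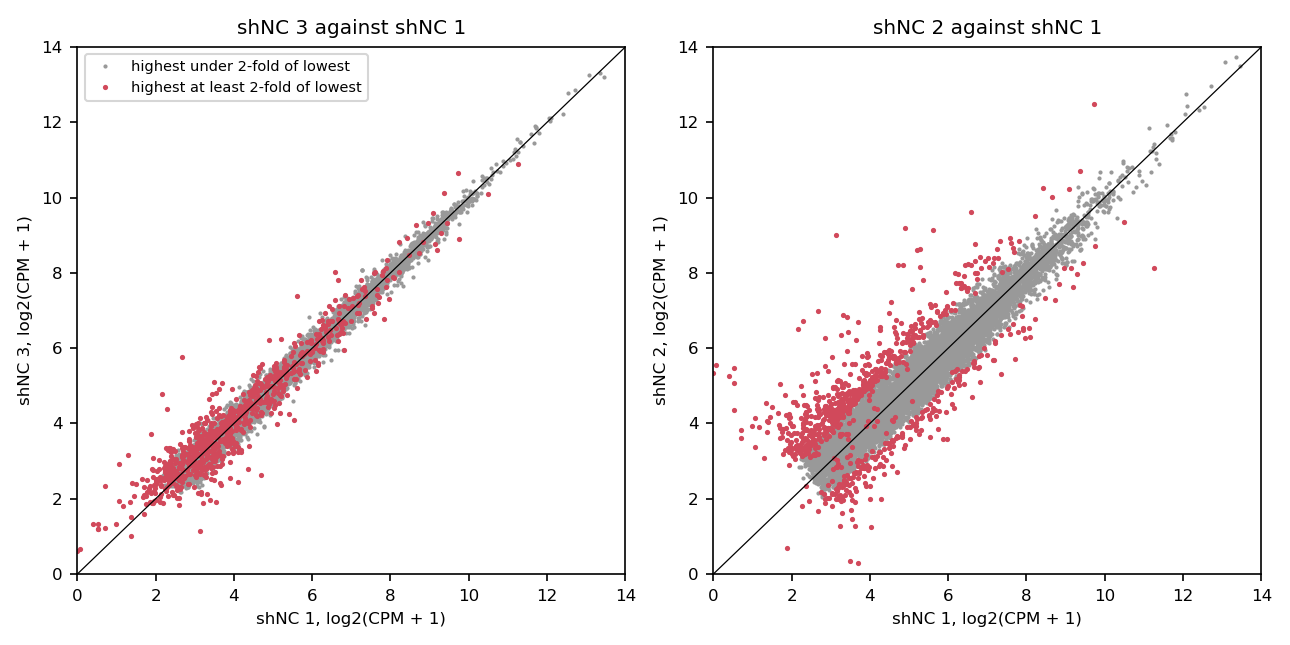
Genes with a mean of at least 5 CPM, log2(CPM + 1) in shNC 3 (left) and shNC 2 (right) against shNC 1, with the 826 genes whose highest library is at least 2-fold the lowest of the 3 in red. Points hug the diagonal for shNC 3 (72 genes at least 2-fold apart) and spread to both sides for shNC 2 (715 genes).

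Of the 20 genes with the widest range, 17 were highest and 3 lowest in shNC 2. COL3A1, DHRS3, COL11A1, POSTN and LCN2 are among those under 5 CPM in both other libraries. Such genes passed the limit on the mean through shNC 2 alone. COL11A1, a minor fibrillar collagen, stood at 0.327, 37.3 and 1.5 CPM and POSTN (periostin), a matrix protein, at 0.436, 43.8 and 1.5 CPM. DHRS3, which reduces retinal, had 0, 753 and 10 counts, at least 243-fold higher in shNC 2 than the limit set by 3 counts in shNC 1. C3, the central complement protein, stood at 28.8, 582 and 73.9 CPM, a 20.2-fold range. FOSB, an immediate early factor, was at 5.34, 125 and 53.1 CPM, and here shNC 1 and shNC 3 also differed by much. COL6A3 was likewise spread over all 3, at 3.49, 90.5 and 26.5 CPM. Others of the first 20 were SLC2A12 (a glucose carrier), PDK4 (which shuts off pyruvate oxidation), SERPINA3 (an acute phase inhibitor), DDIT4L and GBP2, with ranges from 14.5-fold to 20.4-fold. BLOC1S5-TXNDC5 is a read-through of neighbouring genes and its counts are uncertain.

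Those lowest in shNC 2 included an angiogenic factor. ANGPT2, a ligand of the TEK receptor, stood at 10.4, 0.263 and 13.0 CPM, with 5 counts in shNC 2. NPIPB13 was at 12, 0.232 and 6.53 CPM, but it belongs to a family of near-identical copies. The third, ENSG00000277991, was at 2.7, 0.610 and 12.2 CPM and had no symbol.

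The promoter windows of the variable genes were compared with those of all genes at such levels. MMP7, highest in shNC 2 and among the 20, has a window at its start with 4 CG and the letters tataaa 30 bases before the RefSeq start. Over all matched genes with a mean of at least 5 CPM the median window held 27 CG, against 24 for the variable genes highest in shNC 2 and 22 for those lowest in it, and TATAAA was in 5.01%, 7.89% and 9.15% of these classes.

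At the other extreme, genes with a mean of at least 100 CPM that hardly varied were UBQLN1, a shuttle to the proteasome, at 325.3, 325.3 and 325.5 CPM, and DPYSL2, a microtubule-binding protein, at 111.3, 111.0 and 110.9 CPM. BTBD1 and STRN (striatin) also had ranges of no more than 1.01-fold.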

How the data were processed

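The authors deposited expected counts (estimated counts of reads per Ensembl gene). The tools listed, per the submitters' processing notes and without a role for any, are STAR 2.7.9a, RSEM 1.3.3, edgeR 3.32.1 and DESeq2 1.26.0. Build, annotation and strand setting: not given in the sources used here. Of 60695 rows, 31 without a gene ID were left out, and 60463 of 60664 genes had a symbol.

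Only the 3 control libraries were used. Some genes taken by the naming rule are not reported here. CPM was computed on library totals times TMM factors (edgeR 4.0.16 in R 4.3.3, with counts rounded for this step and for the dispersion; factors 1.01, 0.985 and 1.00). A count of 1 CPM in each library defined an expressed gene, and a mean of 5 CPM with a highest library at least 2-fold the lowest (floored at 3 counts) defined a variable gene. The variability step was also run on simulated counts, with 1 spread for all libraries and another floor for the lowest library. That setting differs from these data, and no result here rests on it. Transcript lengths came from GENCODE 29 (APPRIS principal, otherwise the longest), chosen after seeing the data, and were found for 13490 of 13589 expressed genes. Promoter windows came from RefSeq. Other settings were DESeq2 1.42.0 size factors, no scaling, other limits, union exon lengths and each library left out.

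Named genes were the markers given for the line, the 25 highest by CPM and 15 per kilobase, up to 5 members of each of 40 lists (8 for receptor tyrosine kinases, collagens and ovarian markers) with the highest mean plus members without counts, the 20 most and 5 least variable genes, and a few genes known from the line. Further list members named beside these were chosen after their values were seen. The libraries and lists were chosen with earlier results of these data known. Of 897 symbols in the lists, 896 were found.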

Additional observations from a re-analysis of the deposited data

How the results depend on the processing

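Variable genes depended on the limits and on shNC 2. They numbered 826, against 1932 with a mean of at least 1 CPM, 256 at 3-fold and 260 by a gene-wise coefficient of variation of at least 0.4. Leaving out 1 library gave 57 (without shNC 2) to 749 (without shNC 3), and 548 without shNC 1. The coefficient of variation of 22.8% became 9.997% without shNC 2 and 28.1% without shNC 3. The share of the 10 most abundant genes, 6.99%, became 5.38% without mitochondrially encoded genes and 11.9% with counts divided by length. Expressed genes ranged from 10866 (5 CPM) to 14837 (0.5 CPM). Of 511 listed or named genes with a mean of at least 5 CPM, leaving out shNC 2 moved the mean level of 42 by over 1.5 times, such as COL3A1 from 15.4 to 0.325 CPM and CP from 178 to 12.3 CPM, leaving out shNC 1 moved 2 and shNC 3 moved 3, and the other scalings moved 0. No paired analysis was possible because only 1 group was described. Levels under about 0.16 CPM rest on at most 3 counts in a library.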

Other observations

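Glycolysis, proliferation, cytoskeleton, ribosomal protein and histone genes were also read by library. Of all genes with a mean of at least 5 CPM, shNC 2 was highest in 42% and lowest in 44.1%, and 7.27% varied 2-fold. All 17 glycolysis genes were expressed, with GAPDH at 2419, 2619.9 and 3026 CPM in shNC 1, 2 and 3 and PGK1, an ATP-making kinase, at 920.0, 878 and 1148 CPM. LDHA was at 11.1, 10.3 and 14.2 times LDHB per kilobase. All 20 proliferation genes were expressed, and shNC 2 was lowest in 17 of them. MKI67, the antigen of cycling cells, stood at 572, 316 and 534 CPM and RRM2, which supplies deoxynucleotides, at 299, 108 and 261 CPM, the only one of the 20 to vary 2-fold. TOP2A, a topoisomerase of mitosis, was level at 706, 749 and 759 CPM.

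Of 25 cytoskeleton genes 24 were expressed, none varied 2-fold, and shNC 2 was lowest in 15 of the 24. TUBA1B stood at 2109, 1283 and 2057 CPM and ACTB (beta-actin) at 1969, 1377 and 1940.0 CPM, so that ACTG1 was at 1.82, 2.96 and 1.96 times ACTB per kilobase. Actin and tubulin genes have close copies and pseudogenes, which makes their split uncertain. Ribosomal proteins leaned the other way, with shNC 2 highest in 64 of 77 and no 2-fold range. Of 16 histone genes 10 were expressed. Of the 7 with a mean of at least 5 CPM, 6 were lowest in shNC 2 and 3 of these varied 2-fold, against 2.02% of all such genes. H1-2, a linker histone, was at 12, 7.22 and 15.4 CPM and H2AC6 at 7.19, 4.58 and 11.5 CPM, whereas the replacement histone H3-3B stood at 1014, 942 and 1041 CPM. Messages of replication-dependent histones lack poly(A) tails, and oligo(dT) enrichment was used here.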
